A study of Bos taurus with 8 samples.

Results

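Toll-like receptor genes were examined in bovine dermal fibroblasts by MIRA-Seq (methylated CpG island recovery assay followed by sequencing). The members were chosen by name, as every 3Kb window of the bovine genome build UMD v3.1 on chromosomes 1 to 29 that carried the symbol TLR1, TLR2, TLR3, TLR4, TLR5, TLR6, TLR9 or TLR10, with the 2 windows on each side of each gene. Of these 8 genes 7 had windows, which gave 43 of the 902984 windows in all and 26 flanking windows. No window carried the name TLR1, which a RefSeq gene table of another bovine assembly lists only as a synonym of 2 genes, TLR6 and TLR10. TLR1 was therefore not analysed here.

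The cultures came from skin of Holstein (dairy) and Angus (beef) heifers of the same age, with 4 animals per breed and 1 culture and 1 library per animal. All were un-treated dermal fibroblasts at passage 5, revived from frozen stocks, and each is called by its breed and animal number. In MIRA-Seq, sonicated DNA is pulled down with methyl-binding proteins, so that reads accumulate where methylated CpG is dense. The level of a window is given as CPM, its reads counted per 1e6 reads in all windows of that library, and a gene is given as mean CPM per 3Kb window so that genes of different length can be compared. The pull-down also depends on how many CpG sites a window holds, and methylation and CpG density cannot be told apart in these counts.

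Toll-like receptors are membrane proteins that recognise conserved microbial molecules and start the innate immune response. TLR4, with its co-receptor MD-2, recognises the lipopolysaccharide (LPS) of Gram-negative bacteria, and TLR5 recognises flagellin. TLR2 recognises bacterial lipoproteins together with TLR1 or TLR6, and TLR10 is a close relative of these. TLR3 and TLR9 sit in endosomes, where they recognise double-stranded RNA and CpG-containing DNA. Dermal fibroblasts respond to LPS, and the breeds were compared to find whether DNA methylation differs at loci of this response.

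The libraries held 18691111 to 35525554 reads in windows, and a count of 3 reads, used here as the floor of detection, equals 0.0844 to 0.161 CPM, a limit that covers counting error only. The median autosomal window had 0.292 CPM over the 8 libraries. In Holstein 1 and Angus 3 the top 1% of windows took 69.0% and 72.4% of the reads, more than in the other libraries, and their median autosomal windows were the lowest at 0.202 and 0.168 CPM. First windows of 8 fibroblast genes had mean levels of 0.0248 to 0.341 CPM, and those of 4 keratinocyte, 4 blood cell and 2 endothelial genes had 0.333 to 1.99, 0.202 to 0.790 and 0.550 to 2.89 CPM. These are DNA levels, and they do not measure which cells the cultures held.

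The 7 genes differed widely in level, and TLR9 stood far above the rest. Mean CPM per window was 7.49 ± 1.13 (SD, n = 8) in TLR9, which placed it at percentile 99.5 of 24024 autosomal genes. TLR5 had 0.827 ± 0.151 and TLR2 0.724 ± 0.205 mean CPM per window, both above the autosomal gene median of 0.551. TLR4 had 0.472 ± 0.149, TLR3 0.471 ± 0.126, TLR6 0.398 ± 0.101 and TLR10 0.295 ± 0.0976 mean CPM per window, all below that median. Taken in this order, TLR9 exceeded TLR5, TLR2 exceeded TLR4 and TLR6 exceeded TLR10 in 8 of 8 libraries, and TLR5 exceeded TLR2 in 7. TLR4 exceeded TLR3 in 4 of 8 libraries, with a mean difference of 0.0010 ± 0.113 CPM, and TLR3 exceeded TLR6 in 6 of 8, so these neighbours did not separate beyond the spread between libraries.

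**Figure D1:**
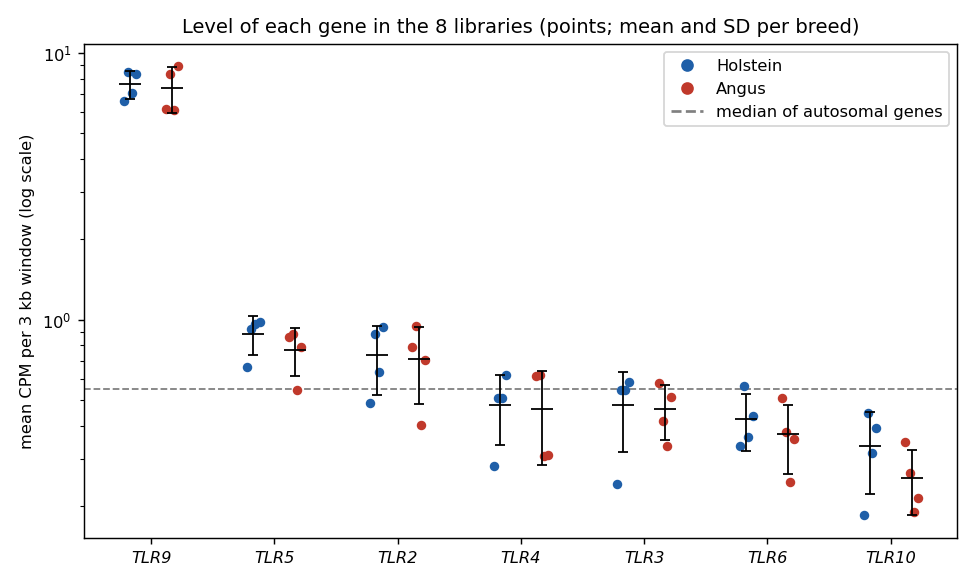
Mean CPM per 3Kb window of each gene on a log axis, with 1 point per library, the mean and SD of each breed (4 libraries each) and a dashed line at the median of autosomal genes. TLR9 lies at 6.08 to 8.88 CPM in every library, TLR5 and TLR2 have means above the line, and the breeds overlap in all 7 genes.

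Holstein 1 and Angus 3 also gave the lowest values along the receptors. Of the 43 windows, 31 had their lowest CPM in one of these libraries, 10 in Holstein 1 and 21 in Angus 3. The matching share over all windows was not counted. Their median autosomal windows were also the lowest, at 0.202 and 0.168 CPM, so low CPM there was not particular to the receptors. The mean over the 41 windows outside TLR9 was 0.414 CPM in Holstein 1 and 0.360 CPM in Angus 3, against 0.519 to 0.681 CPM in the other 6 libraries. TLR9 over the mean of the other receptor windows ranged from 9.54 in Angus 1 to 17.1 in Angus 4. The part of read concentration in these levels was not tested.

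TLR9, the endosomal receptor for CpG-containing DNA, spans 2 windows on chromosome 22 (49229667 to 49235666, plus strand), with coding exon 1 in the first and coding exon 2 in the second. Its first window had 7.99, 9.61, 8.63 and 9.49 CPM in Holstein 1 to 4 and 7.02, 10.05, 7.42 and 9.95 CPM in Angus 1 to 4. The lowest and the highest value were both Angus, so the Holstein libraries lay inside the Angus range. Its second window had 4.74 to 7.81 CPM and was below the first in 8 of 8 libraries. The flanking windows were lower. Those upstream, which carry the neighbouring gene TWF2, had 1.37 ± 0.448 CPM (SD, n = 8) next to TLR9 and 4.21 ± 0.715 CPM one window further. Those downstream, with no gene name, had 0.785 ± 0.324 and 0.980 ± 0.211 CPM.

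TLR5, the flagellin receptor, spans 11 windows on chromosome 16 (27275981 to 27308980, minus strand), with coding exon 1 in its first 2 windows. The signal was lower over windows 1 to 8, with means of 0.360 to 0.753 CPM, at percentiles 58.8 to 82.4 of autosomal windows. It was higher over windows 9 to 11, with means of 1.36, 1.76 and 1.92 CPM, none of which holds a coding exon. The last window was the highest, with 1.31, 1.90, 2.04 and 2.39 CPM in Holstein 1 to 4 and 2.02, 2.05, 1.28 and 2.35 CPM in Angus 1 to 4. It exceeded window 10 in 5 of 8 libraries only, so these windows did not separate. The first window had 0.506, 0.476, 0.492 and 0.366 CPM in the Holstein libraries and 0.524, 0.313, 0.437 and 0.0535 CPM in the Angus libraries, with Angus 4 lowest on 1 read.

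TLR2, the lipoprotein receptor, spans 5 windows on chromosome 17 (3948294 to 3963293, minus strand). Its signal was highest in window 4, the first of the 2 windows that hold its coding exon. That window had 1.16, 2.03, 1.21 and 2.03 CPM in Holstein 1 to 4 and 1.78, 1.95, 1.24 and 1.71 CPM in Angus 1 to 4. It was the highest window of TLR2 in 8 of 8 libraries, and the Angus values lay inside the Holstein range. The first window had 0.354, 0.563, 0.568 and 0.676 CPM in Holstein and 0.489, 0.556, 0.168 and 0.214 CPM in Angus. Here the low values were those of Angus 3 and Angus 4, and the breeds overlapped. The window just downstream, in the neighbouring gene RNF175, had 1.69 ± 0.458 CPM (SD, n = 8), a difference from window 4 (1.64 ± 0.377 CPM) smaller than the spread between libraries.

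TLR4, the LPS receptor, spans 5 windows on chromosome 8 (108826087 to 108841086, plus strand), with coding exons 1 to 3 in windows 2 to 5. The last window, which holds part of coding exon 3, was the highest in 8 of 8 libraries. It had 0.910, 1.21, 1.36 and 1.52 CPM in Holstein 1 to 4 and 1.29, 1.08, 0.638 and 1.12 CPM in Angus 1 to 4. The highest value was that of Holstein 4 and the lowest that of Angus 3, and the breeds overlapped. The first window had 0.202, 0.390, 0.416 and 0.422 CPM in Holstein and 0.314, 0.834, 0.201 and 0.161 CPM in Angus, so that Angus 2 alone was clearly above the Holstein libraries. The window before the gene had 0.563 ± 0.232 CPM (SD, n = 8), and windows 3 and 4 had the lowest means within it, 0.210 and 0.167 CPM.

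TLR3, the endosomal receptor for double-stranded RNA, spans 5 windows on chromosome 27 (15230067 to 15245066, plus strand). It had a pair of raised windows, the first, which holds no coding exon, and the fourth, with coding exon 3, at means of 0.786 and 0.763 CPM. The first window exceeded the fourth in 5 of 8 libraries. It had 0.455, 0.909, 0.832 and 0.957 CPM in Holstein 1 to 4 and 0.942, 0.522, 0.705 and 0.963 CPM in Angus 1 to 4. The lowest value was that of Holstein 1 and the breeds overlapped. The window before the gene had 0.138 ± 0.044 CPM (SD, n = 8), at the level of 3 reads.

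TLR6 and TLR10 lie next to each other on chromosome 6, both on the minus strand, TLR6 over 12 windows (59684882 to 59720881) and TLR10 over 3 (59669882 to 59678881). The 2 windows between them serve as flanks of both. The receptors of this group are alike in sequence, and how the authors' counting treated reads that match several places is not given in the sources used here, so the split of reads between TLR6 and TLR10 is uncertain.

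In TLR6, the partner of TLR2, the first window was almost empty, at 1, 4, 0 and 2 reads in the Holstein libraries (1 to 4) and 4, 0, 5 and 0 in the Angus libraries. A count of 0 allows up to 0.114 CPM in Holstein 3, 0.104 CPM in Angus 2 and 0.161 CPM in Angus 4. Its mean of 0.0734 CPM was at percentile 8.25 of autosomal windows, the lowest of all 43. The fourth window, upstream of the windows with a coding exon, was the highest in 8 of 8 libraries, with 1.47, 1.56, 1.10 and 1.44 CPM in Holstein 1 to 4 and 1.05, 1.04, 0.907 and 1.50 CPM in Angus 1 to 4. Of the Angus values 3 were below all Holstein values, but Angus 4 was among the highest. This order is in CPM, scaled by library total only, and the further scaling used in the breed tests does not keep it. The windows with coding exon 1 had 0.200 and 0.212 CPM.

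In TLR10 the last window was the highest in 7 of 8 libraries. It had 0.405, 0.606, 0.643 and 0.563 CPM in Holstein 1 to 4 and 0.384, 0.382, 0.437 and 0.428 CPM in Angus 1 to 4. In CPM, scaled by library total only, the breeds overlapped only through Holstein 1. The further scaling between libraries used in the breed tests does not keep this order. The first window had 0.101, 0.519, 0.151 and 0.310 CPM in Holstein and 0.489, 0.139, 0.134 and 0.161 CPM in Angus, with 1 high library in each breed, Holstein 2 and Angus 1.

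**Figure D2:**
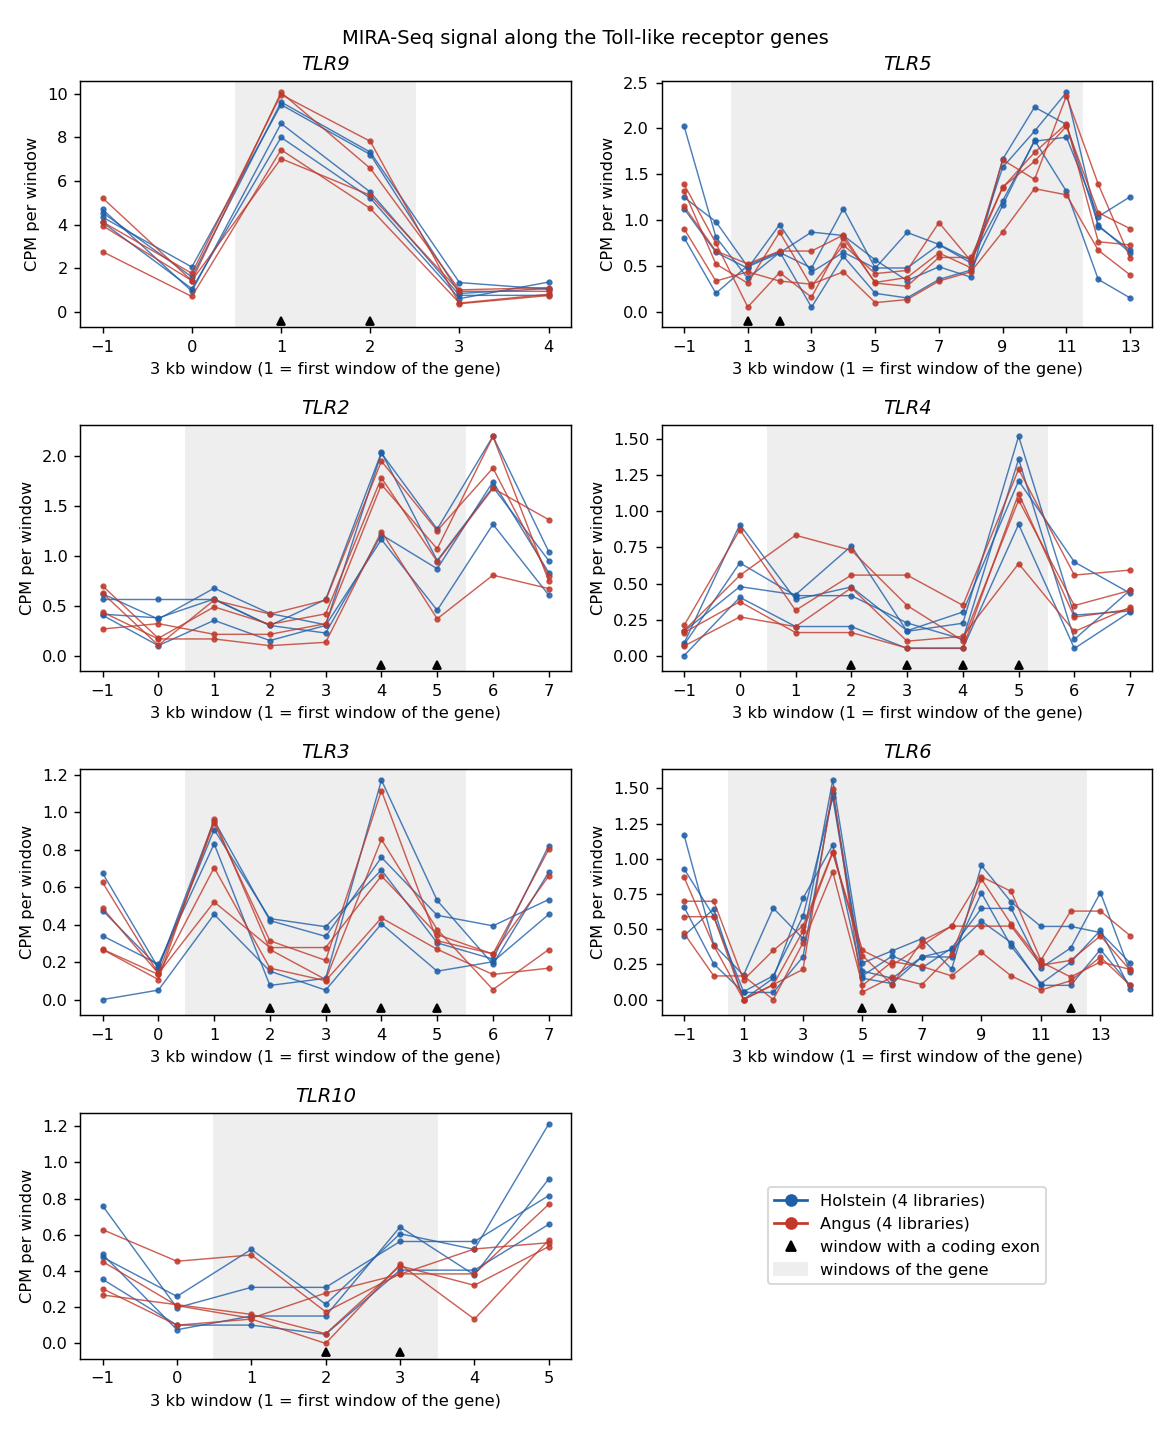
CPM of each 3Kb window along the 7 genes, with 1 line per library (Holstein blue, Angus red); windows are numbered from 1 at the first window of the gene in the direction of transcription, the gene is shaded, the 2 windows on each side are unshaded and triangles mark windows with a coding exon. The lines of both breeds follow the same shape, with peaks in TLR9 window 1, TLR2 window 4, TLR4 window 5 and TLR6 window 4.

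Among the 43 windows, 31 lay above the median autosomal window. The 19 windows with a coding exon had a median of 0.396 CPM and the 24 without one 0.426 CPM, and with TLR9 left out the former fell to 0.342 CPM. The last windows of the 7 genes had a median of 0.897 CPM and the first windows 0.396 CPM. The highest coverage of any base in these windows was 35 reads, in TLR9 window 1.

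The first window of a gene was set against the mean of its other windows within each library, since first windows stand in for promoters here. Transcription start sites were not available. The study's promoter regions lay mostly upstream of the start site, so part of a promoter may lie in the window before the gene. Over all 19860 autosomal genes with at least 2 windows, the first window was lower in 53.7% and higher in 23.1% (exact two-sided sign-flip permutation test, FDR < 0.1), so a lower first window was the common pattern. Of the 7 receptors 3 had a lower first window, 2 a higher one and 2 did not pass. In TLR5 the first window had 0.396 CPM and the rest 0.870 CPM, a difference of -0.47 ± 0.24 CPM (SD, n = 8). In TLR2 the values were 0.448 and 0.792 CPM, a difference of -0.34 ± 0.17 CPM. In TLR6 they were 0.0734 and 0.428 CPM, a difference of -0.35 ± 0.11 CPM. Each of these 3 genes was lower in 8 of 8 libraries, as were 43.0% of the 19860 genes. In TLR2 the first window was above windows 2 and 3, at means of 0.278 and 0.354 CPM, and below only windows 4 and 5. Those windows hold its coding exon and had means of 1.64 and 0.897 CPM. In TLR5 the first window was close to windows 3, 5 and 6, at means of 0.405, 0.360 and 0.385 CPM, and its other windows had higher means.

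TLR3 and TLR9 had the opposite pattern, with the first window higher in 8 of 8 libraries, which 15.4% of the 19860 genes also had. The first window of TLR3 had 0.786 CPM against 0.392 CPM in the rest, a difference of 0.39 ± 0.14 CPM (SD, n = 8). That of TLR9 had 8.77 against 6.21 CPM, a difference of 2.56 ± 0.58 CPM. All 5 genes reached the smallest p that 8 libraries allow in the exact sign-flip test, 0.0078, with an adjusted p of 0.0134. When the window before the gene was averaged with the first, the difference in TLR9 turned to -1.14 CPM, since that window lies in TWF2 and is low. In the same setting the difference in TLR3 was 0.070 CPM (exact sign-flip test, adjusted p = 0.0426) and that in TLR6 was -0.16 CPM (exact sign-flip test, adjusted p = 0.0129). Against the median of the other windows, TLR5 had -0.25 CPM and TLR2 had -0.19 CPM, and both passed.

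TLR4 and TLR10 did not pass. In TLR4 the first window was lower by -0.13 ± 0.18 CPM (SD, n = 8) and lower in 7 of 8 libraries (exact sign-flip test, adjusted p = 0.128). Angus 2 was the exception, and without it TLR4 had a difference of -0.19 CPM and passed (exact sign-flip test, adjusted p = 0.0262). In TLR10 the difference was -0.07 ± 0.15 CPM with 6 of 8 libraries lower (exact sign-flip test, adjusted p = 0.274). Without Angus 1 it was -0.11 CPM and passed (exact sign-flip test, adjusted p = 0.0843). Neither direction was stable, because leaving the last window out of the rest turned TLR4 to 0.08 CPM and TLR10 to 0.10 CPM, and the median in place of the mean turned TLR4 to 0.01 CPM.

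**Figure D3:**
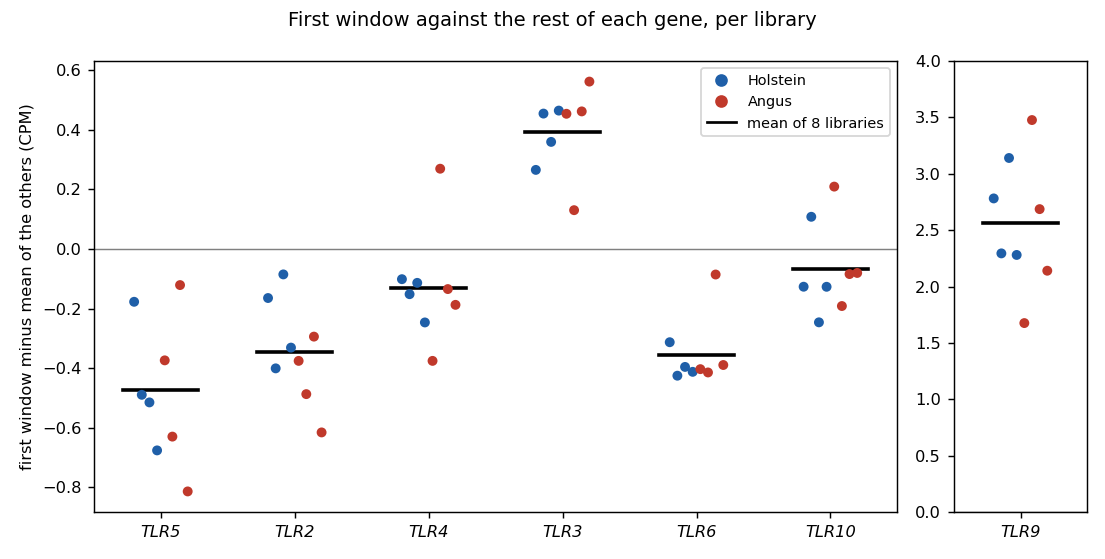
First-window CPM minus the mean CPM of the gene's other windows, 1 point per library, with a line at the mean of 8 libraries; TLR9 has its own axis. All libraries lie below 0 in TLR5, TLR2 and TLR6 and above 0 in TLR3 and TLR9, while Angus 2 lies above 0 in TLR4, and Holstein 2 and Angus 1 do so in TLR10.

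No difference between the breeds passed the test in any of the 7 receptors. With reads summed over all windows of a gene, 0 of 7 genes were called by edgeR's likelihood-ratio test at FDR < 0.1 and a fold change of at least 2, and 0 of 7 had an unadjusted p under 0.05. Over all 25271 genes 0.135% were called and 2.73% had such a p. edgeR's quasi-likelihood test and DESeq2 also gave 0 of 7 at an unadjusted p under 0.05. The median log2 fold change of Holstein over Angus was -0.08 over the 7 genes and 0.00 over all genes tested, with 3 of the 7 positive. With total counts in place of TMM all 7 were positive, at a median of 0.07, and the median of all genes moved to 0.15.

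TLR4 had 0.480 ± 0.141 mean CPM per window in Holstein and 0.463 ± 0.177 in Angus (SD, n = 4 each). Its log2 fold change after TMM scaling was -0.10, with a 95% interval of -0.49 to 0.28 (edgeR, adjusted p = 1.00). TLR9 had 7.62 ± 0.930 and 7.36 ± 1.44 mean CPM per window, and a log2 fold change of -0.10 (-0.44 to 0.24). TLR5 had 0.882 ± 0.146 and 0.772 ± 0.155, and a log2 fold change of 0.05 (-0.20 to 0.31). In TLR2, TLR3, TLR4 and TLR9 the difference of CPM means and the fold change differed in sign, because TMM scaling moves the libraries against each other by factors of 0.662 in Angus 3 to 1.26 in Holstein 2. The largest estimate was that of TLR10, on 191 reads in all, with 0.336 ± 0.114 mean CPM per window in Holstein and 0.255 ± 0.0704 in Angus and a log2 fold change of 0.23 (-0.23 to 0.68). In TLR2, TLR3 and TLR6 the log2 fold changes were -0.08 (-0.41 to 0.24), -0.08 (-0.43 to 0.26) and 0.04 (-0.27 to 0.35). All 7 approximate intervals lay inside -1 and 1, so that differences of 2-fold in a whole gene were outside them in either direction. Without Holstein 1 and Angus 3 the log2 fold changes were -0.09 in TLR4, -0.15 in TLR9 and 0.28 in TLR10, and that of TLR6 turned to -0.06, with 0 of 7 genes called.

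**Figure D4:**
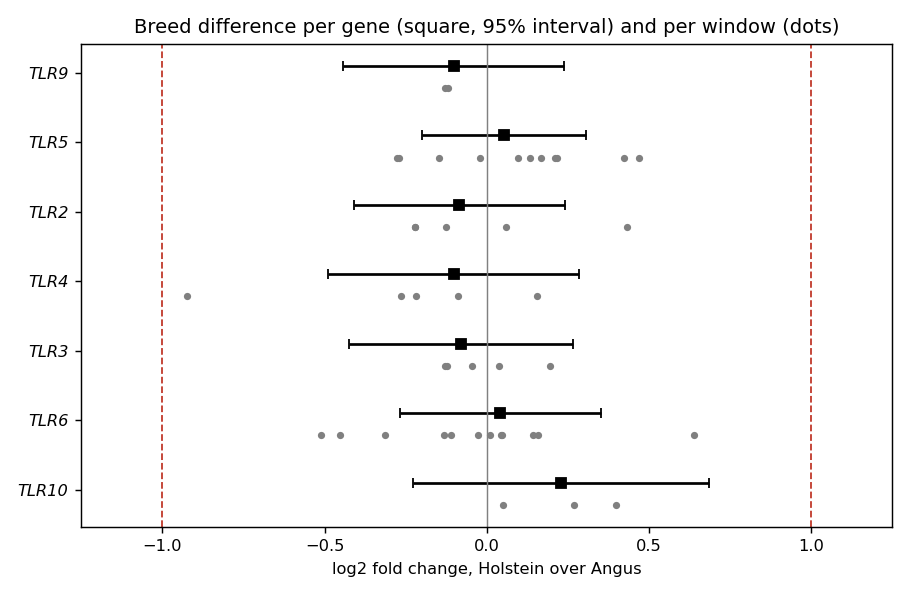
Log2 fold change of Holstein over Angus for each gene (square) and for each of its 3Kb windows (grey dots, without intervals). Bars are approximate 95% intervals derived from the edgeR likelihood-ratio statistic, and red dashed lines mark a fold change of 2 in either direction. All 7 gene intervals cross 0 and lie inside the red lines, and the window furthest from 0 is TLR4 window 3 at -0.92.

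Single windows gave the same count. Among the 856519 windows with at least 10 reads, 0.107% were called and 4.44% had an unadjusted p under 0.05, while 0 of the 43 receptor windows and 0 of the 26 flanking windows were called or had such a p by edgeR's likelihood-ratio test. The quasi-likelihood test and DESeq2 also gave 0 of 43 at an unadjusted p under 0.05. Of the 43 log2 fold changes, 21 were positive and 22 negative, with a median of -0.02 and a range of -0.92 to 0.64, and with total counts 33 were positive at a median of 0.12, where the median of all windows was 0.16. In 32 windows the approximate 95% interval lay inside -1 and 1. In the other 11 a 2-fold difference in at least 1 direction was within it. Only 8 of the 43 windows reached 1 CPM in at least 4 libraries, and 0 of those 8 were called, against 0.231% of the 115360 windows that did.

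The window of TLR4 with coding exon 2, window 3, came closest. Its reads were 1, 4, 6 and 6 in the Holstein libraries (1 to 4) and 16, 10, 3 and 1 in the Angus libraries, so that Angus 1 and Angus 2 were high and the other Angus libraries lay within the Holstein range. Its log2 fold change was -0.92, with a 95% interval of -1.85 to 0.00 (edgeR, unadjusted p = 0.0503, adjusted p = 1.00). Over 16 alternatives its log2 fold change ranged from -1.16, without Angus 4 (edgeR, unadjusted p = 0.0140), to -0.47, without Angus 1 (edgeR, unadjusted p = 0.403). The unadjusted p was under 0.05 in 5 of the 16 and not in the other 11, which include DESeq2 at 0.169, and the window was called in none, DESeq2 giving it no adjusted p. TLR4 window 1 had a log2 fold change of -0.27 and window 5 had 0.16, neither near the threshold.

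TLR5 window 10 was the single window of the 43 in which the breeds did not overlap in CPM, against 1.26% of all windows with at least 10 reads. It had 1.87, 1.86, 2.23 and 1.97 CPM in Holstein 1 to 4 and 1.64, 1.74, 1.34 and 1.44 CPM in Angus 1 to 4. These CPM values, like the 1.26%, are before TMM scaling. The TMM factors over windows were 1.34 in Holstein 2 and 1.06 in Angus 2. Divided by them, Holstein 2 lies below Angus 2, so the breeds overlap on that scale. After TMM scaling its log2 fold change was 0.21, with a 95% interval of -0.29 to 0.71 (edgeR, unadjusted p = 0.414). It was singled out after its values were seen.

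Other genes of Toll-like receptor signalling were not called either. Of 35 listed genes, all with windows, 0 were called and 0 had an unadjusted p under 0.05 by edgeR's likelihood-ratio test, beside 0.135% and 2.73% of all genes, so that a count of 0 lies near the background. Their median log2 fold change was 0.02, with a range of -0.34 to 0.23 and 19 higher in Holstein. The smallest p among those higher in Angus was that of UNC93B1, which carries endosomal receptors such as TLR3 and TLR9 to their compartment. It had 2.15 ± 0.316 mean CPM per window in Holstein and 2.48 ± 0.760 in Angus (SD, n = 4 each), and a log2 fold change of -0.34 (edgeR, unadjusted p = 0.0547). Among those higher in Holstein it was IRAK2, a kinase downstream of the adaptor MYD88, with 0.816 ± 0.188 and 0.646 ± 0.186 mean CPM per window and a log2 fold change of 0.21 (edgeR, unadjusted p = 0.0878).

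In level, the 35 signalling genes had a median of 1.16 mean CPM per window, above 6 of the 7 receptors. By role the medians were 0.445 in co-receptors and chaperones, 1.71 in adaptors, 0.431 in kinases and ligases, 1.51 in transcription factors and 1.47 in inhibitors and decoys. Of the 35 genes only TOLLIP, an inhibitor of the pathway, exceeded TLR9, with 8.33 mean CPM per window. MYD88, the adaptor shared by most receptors, had 1.16 and LY96, which encodes MD-2, had 0.445. Of the 33 with at least 2 windows, 20 had a lower first window and 6 a higher one (exact sign-flip test, FDR < 0.1), shares to be read against 53.7% and 23.1% over all genes.

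Over the 8 libraries and 15452 autosomal genes with at least 400 reads, the genes whose TMM-scaled log2 CPM varied most like that of TLR4 were LOC100139644, APPL2 and LOC100300051, each with a Pearson r of 0.93, and 120 genes had an r over 0.8. For TLR9 they were OTOP3, SEMA4B and LOC507750, each with a Pearson r of 0.99, and 2775 genes had an r over 0.8. All points share the same libraries and their depth, and the values are given as a description.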

How the data were processed

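MIRA-Seq libraries of un-treated dermal fibroblasts from 4 Holstein and 4 Angus heifers were grouped by the breed and animal number in their labels. Base calls came from CASAVA 1.7 per the labels. The authors aligned reads to UMD v3.1 with NextGENe 2.3.4 and deposited raw read counts per 3Kb window. They also deposited the coverage signal of each window, not scaled for depth, which was used here only for the highest base. Duplicate handling is not given in the sources used here, and no input library was used.

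Tests on counts used edgeR 4.0.16 under R 4.3.3 (TMM on library sizes over all windows, generalized linear model likelihood-ratio test, breed only, Benjamini-Hochberg adjustment over the whole table), after the study's methods. A window was kept when 4 or more libraries reached 1 CPM or, for the members' values, at least 10 reads over the 8 libraries, and the latter limit was also used for genes. The 95% intervals are approximate normal intervals. Their standard error was taken as the size of the log2 fold change over the square root of the likelihood-ratio statistic. It is unstable where the fold change is near 0, as in the window before TLR3, with -0.0010 and an interval of -2.64 to 2.64. First windows were compared in Python 3.11.15 with numpy 2.4.6 over 256 sign flips. Scripts were tested on simulated data.

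Members, lists and tests were chosen with earlier results of these data known. Windows given for every library were the first and the highest of each gene. Of the signalling list, the genes with FDR < 0.1, or else the smallest p in each direction, were named. Each result was recomputed with DESeq2 1.42.0, the quasi-likelihood test, DESeq2's size factors, total counts, autosomes only, other filters and thresholds, a block for the animal number, and libraries left out. Leaving out Holstein 1 and Angus 3 together was chosen after seeing the data. Libraries of 1 breed differed by more than sampling noise (chi-square per window 3.23 to 21.5 over 12 pairs).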

Additional observations from a re-analysis of the deposited data

Results flagged for a closer look

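Among 38 groups of 4 libraries, 3 held a library whose distance from the nearest other, divided by the range of the group, exceeded 0.829. Chance alone gives about 1 such group in 20. In TLR3 the library Holstein 1 had 0.243 mean CPM per window, while the other Holstein libraries had 0.545 to 0.585. In TLR4 window 1 the same library had 0.202 CPM, with the other Holstein libraries at 0.390 to 0.422. Holstein 1 was also one of the libraries with the most concentrated reads. Its TMM factors, 0.733 over genes and 0.714 over windows, were the lowest of the Holstein libraries. The rule was applied only to CPM before TMM scaling, so these values do not separate a gene from the scale of the library. In TLR10 window 1 the library Angus 1 had 0.489 CPM on 14 reads, while the other Angus libraries had 0.134 to 0.161 CPM on 3 to 4 reads.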

How the results depend on the processing

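Over 311 alternative log2 fold changes of the 7 genes and 12 named windows, 0 of the 302 with an adjusted p were called and 24 of the 311 changed sign. DESeq2 gave no adjusted p for 9 of the windows. An unadjusted p under 0.05 appeared in 1 receptor window in 6 settings, in TLR4 window 3 or TLR6 window 2 (the latter without Angus 1, log2 fold change 1.53), and in 1 gene in 1 setting (TLR9 without Angus 1, log2 fold change -0.25). Over all windows 4.18 to 5.79% had such a p in those 6 settings, and 6.39% of all genes did without Angus 1. Total counts in place of TMM moved the median log2 fold change of all genes to 0.15 and of all windows to 0.16, and TLR9, TLR2, TLR4 and TLR3 then had 0.051, 0.057, 0.055 and 0.071, below that shift, as did TLR9 window 1 with 0.055, TLR5 window 11 with 0.016 and TLR3 window 1 with 0.047. Without Holstein 1 and Angus 3, TLR3 window 1 had 0.046, TLR6 window 1 had 0.31 and TLR6 had -0.056. Leaving out 1 library at a time gave log2 ranges that crossed 0 in TLR2 (-0.16 to 0.040), TLR4 (-0.24 to 0.012) and TLR6 (-0.030 to 0.12), and in TLR10 window 1 (-0.28 to 0.57), TLR3 window 1 (-0.34 to 0.021), TLR4 window 1 (-0.50 to 0.42), TLR5 window 1 (-0.082 to 0.49), TLR6 window 1 (-1.22 to 0.35) and TLR6 window 4 (-0.033 to 0.31).

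First-window differences changed direction in TLR9 (-1.14 CPM with the window before the gene averaged in), TLR4 (0.013 CPM against the median of the others, 0.085 CPM with the last window left out) and TLR10 (0.096 CPM with the last window left out). The last choice leaves TLR9 no value.

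The 267 windows called of 115360 became 141 with the quasi-likelihood test and with DESeq2, 153 on autosomes only, 905 without a filter, 425 without a fold minimum, 531 without Holstein 1 and Angus 3, and 145 (without Holstein 4) to 564 (without Holstein 1) leaving out 1 library. Without Holstein 3 it was 176. The cause was not tested. With the animal number as a block, 346 windows were called, and 0 receptor windows and 0 of the 7 genes. The deviations of animals with the same number had r of -0.57 to 0.18, over 0.1 in 1 of 4 pairs. Of the 8 libraries 1 correlated best with its own number. These 4 pairs are too few to show whether animals with the same number shared a processing step. All windows with at least 10 reads gave 917 calls, and 40 with DESeq2 to 1273 over the alternatives. The 34 genes called became 0 with the quasi-likelihood test, where 568 had an unadjusted p under 0.05, and up to 54 in other settings. Of the 43 receptor windows 8 reached 1 CPM in 4 libraries, beside 12.8% of all windows.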
